A study of Mus musculus with 3 samples.

Results

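A group of myelinating Schwann cells of the mouse dorsal root ganglion (DRG) was described that carries transcripts of Lox, Mfap5, Otop1, Scube1 and Slit2. Cells were counted as members when they had a unique molecular identifier (UMI, the tag that marks a single captured mRNA molecule) of at least 2 of these 5 genes. A cell was called myelinating when it had UMIs of at least 3 of 7 genes of the myelin programme (Mag, Prx, Ncmap, Cldn19, Drp2, Pllp and Bcas1). UMIs were also limited for Fabp7 (satellite glia), Scn7a (non-myelinating Schwann cells), Snap25 and Rbfox3 (neurons), Pecam1 and Cdh5 (endothelium), and Dcn and Lum (fibroblasts). Other markers of these cell kinds were not limited. This gave 1213 member cells among 4134 myelinating cells and 9662 cells in all. The other 2921 myelinating cells, with fewer than 2 of the 5 genes, were the comparison.

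The cells came from 3 libraries of lumbar L3 and L4 DRGs. The first was from untreated (naïve) mice, the second was taken 7 days after spared nerve injury (SNI) of both hind legs, and the third 14 days after it. SNI cuts branches of the sciatic nerve and spares the sural branch. All mice were wild type C57BL/6J males of 13 weeks, and each library pooled the 8 ganglia of 2 mice. There was 1 library per condition, and the mice of a library could not be separated, so no test between conditions was possible and no p-value is given. The members were also chosen from the same counts that are described. Intervals are 95% intervals for counting error only, exact Poisson for levels, exact Clopper-Pearson for shares, and exact conditional binomial for ratios.

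Myelinating Schwann cells wrap a single stretch of axon in a compact sheath and lay down a basal lamina around it. In the DRG they lie along the axons that leave the sensory neurons, whereas satellite glial cells surround the neuron bodies. Lox is lysyl oxidase, the secreted enzyme that crosslinks collagen and elastin. Mfap5 is a glycoprotein of the microfibrils on which elastic fibres are built. Slit2 is a secreted guidance ligand of Robo receptors, Scube1 a secreted and surface-bound protein with EGF-like and CUB domains, and Otop1 a proton channel. Spp1, which encodes osteopontin, a secreted protein that binds integrins and CD44, was named with these genes as a marker but was not used to choose the cells.

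The genes lie apart in the genome of the build mm10 (GRCm38, GENCODE M21). Otop1 (chr5:38275972-38304217), Slit2 (chr5:47983138-48307733), Spp1 (chr5:104435118-104441050) and Mfap5 (chr6:122505845-122529290) are on the plus strand, and Scube1 (chr15:83604999-83725021) is on the minus strand. No annotated gene overlaps Mfap5, Otop1 or Scube1, whereas 7 overlap Slit2 and 1 overlaps Spp1.

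The bases just before the start of 4 genes that are higher in members are shown. Slit2 and Scube1 were used to choose the members, and Apod was picked for its level in them, so their joint rise follows from the choice. The 4 windows are those of Spp1 (chr5:104434861-104435110, plus strand), Apod (chr16:31314809-31315058, minus strand), Slit2 (chr5:47982905-47983137, plus strand) and Scube1 (chr15:83725040-83725289, minus strand). They were taken from RefSeq promoters of GRCm38.p6, 5′ to 3′, and end before the annotated start of the gene. Capitals mark every match, on either strand, to 5 motifs, namely ACAAAG (SOX factors), GGAATG (TEAD factors), TGANTCA (AP-1), TATAAA (the TATA box) and GTGGGCG (EGR factors).
Spp1: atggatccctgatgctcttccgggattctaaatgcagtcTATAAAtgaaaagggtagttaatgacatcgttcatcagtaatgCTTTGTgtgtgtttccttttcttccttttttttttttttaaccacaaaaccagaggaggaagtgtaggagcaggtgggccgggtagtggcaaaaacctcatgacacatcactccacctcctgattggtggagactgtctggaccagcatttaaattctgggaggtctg
Apod: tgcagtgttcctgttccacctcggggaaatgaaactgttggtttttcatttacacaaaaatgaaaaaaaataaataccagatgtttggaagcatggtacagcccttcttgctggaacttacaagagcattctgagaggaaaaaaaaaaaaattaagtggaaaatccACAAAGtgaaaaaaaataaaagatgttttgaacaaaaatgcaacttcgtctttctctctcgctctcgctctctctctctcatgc
Slit2: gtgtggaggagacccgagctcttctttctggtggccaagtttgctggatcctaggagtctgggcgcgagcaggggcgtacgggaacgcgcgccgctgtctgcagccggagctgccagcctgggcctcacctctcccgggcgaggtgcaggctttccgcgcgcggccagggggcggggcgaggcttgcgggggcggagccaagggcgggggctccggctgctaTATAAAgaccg
Scube1: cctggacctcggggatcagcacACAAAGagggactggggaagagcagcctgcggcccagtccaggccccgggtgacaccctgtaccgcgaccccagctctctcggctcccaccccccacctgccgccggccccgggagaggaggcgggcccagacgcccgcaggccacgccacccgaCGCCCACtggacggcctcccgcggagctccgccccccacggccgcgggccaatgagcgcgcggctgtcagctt

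ACAAAG or its reverse complement was present before Spp1, Apod and Scube1, and 16.5% of the 32851 windows of 250 bases in the table hold it. TATAAA was present before Spp1 and Slit2 (12.4% of windows), and GTGGGCG on the reverse strand before Scube1 (7.02%). These letters do not show that a factor binds there. No match to GGAATG (12.6% of windows) or TGANTCA (6.75%) was present in the 4 windows. No 2 motif matches overlap in them.

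The label of these cells was first held against their own marker genes. The 10 markers of myelinating Schwann cells summed to 86719 CPM (UMIs of a gene per 1000000 UMIs) in naïve members, 78546 CPM at 7 days and 74134 CPM at 14 days. In the other myelinating cells the sums were 62279, 64988 and 59528 CPM. Of the 10 markers 7 are the genes by which both groups were called myelinating. Each of these 7 was at or below 2557 CPM in members, a small part of the sums. Mbp, which the rule did not use, was at 13047, 12646 and 11496 CPM in members against 10499, 10603 and 9476 CPM. Of the 10 markers 9 were higher in members in the naïve and 7-day libraries, and 8 at 14 days. The part of depth in this difference was not tested. Of the 6 named genes 5 chose the members, so their levels follow largely from the choice. Each of the 6 named genes was higher in members than in the other myelinating cells in every library.

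The levels of the 5 genes of the rule are a description of what was chosen, since a member must have UMIs of at least 2 of them. Lox, which lies on chromosome 18, was at 153 CPM in naïve members, 127 CPM at 7 days and 179 CPM at 14 days, against 1.45, 1.84 and 2.35 CPM in the other myelinating cells. Scube1 was at 87.9, 160 and 109 CPM against 3.27, 6.97 and 3.13 CPM. Neither reached 7 CPM in the other myelinating cells of any library.

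Slit2 was at 178, 231 and 216 CPM in members and at 14.5, 17.6 and 15.1 CPM in the other cells. Otop1 was at 282, 281 and 212 CPM against 35.9, 25.7 and 27.7 CPM. Mfap5 was at 830, 667 and 671 CPM against 197, 136 and 155 CPM. Mfap5 thus had the highest level outside the members among the 5 genes. That each of the 5 genes was higher in members follows largely from the rule, which chose the cells by these genes.

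The number of the 5 genes seen in a cell was graded rather than all or none. In the naïve library 670 of 1363 myelinating cells had none, 364 had 1, 169 had 2, 91 had 3, 52 had 4 and 17 had all 5. At 7 days 511 of 1135 cells had none and 38 had all 5, and at 14 days 703 of 1636 had none and 51 had all 5. The commonest combination in members was Mfap5 with Slit2 alone (254 of 1213 cells, 20.9%), then Mfap5 with Otop1 alone (133 cells, 10.96%), then all 5 (106 cells, 8.74%). Lox and Scube1 as the only pair were found in 2 cells.

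Just outside the rule, the cells with 1 of the 5 genes were mostly cells with Mfap5. Mfap5 was the gene seen in 69.0% of the naïve, 60.6% of the 7-day and 67.7% of the 14-day cells of this kind. Otop1 followed at 19.0%, 16.6% and 15.9%. Lox was the gene seen in 1.10%, 1.81% and 2.27% of these cells. This order follows the levels of the genes and the rule itself, and nothing was read from it.

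Whether the 5 genes occur in the same cells was described by leaving each out in turn. Cells were chosen by at least 2 of the other 4 genes, and the left-out gene was then counted. Lox had a UMI in 32.5% of the chosen naïve cells (27.3 to 38.0%), 32.9% at 7 days and 33.9% at 14 days. In the myelinating cells not chosen it had a UMI in 1.81%, 2.61% and 3.37%. Scube1 had a UMI in 25.2%, 46.1% and 33.1% of the chosen cells and in 2.66%, 5.64% and 4.90% of those not chosen.

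Slit2 was present in 44.8%, 59.6% and 55.5% of the chosen cells against 9.81%, 14.5% and 16.003%. Otop1 was present in 47.4%, 49.8% and 41.8% against 13.4%, 11.7% and 13.0%. Mfap5 was present in 84.7%, 77.8% and 80.8% against 33.6%, 31.5% and 37.0%. For every gene and library the 2 intervals were apart. Chosen cells were deeper, with medians of 3959 to 6157 UMIs against 2279 to 3315 UMIs.

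Depth alone raises the share of cells with a UMI, so the same shares were taken in cells with at least 3000 UMIs. Lox then had a UMI in 38.8% of the chosen naïve cells at a median of 4636 UMIs, and in 4.07% of the others at a median of 3685 UMIs. Otop1 (54.2% against 27.6%) and Mfap5 (85.4% against 40.9%) had the smallest ratios of shares in naïve cells of that depth. In CPM, left-out Lox was at 145 in chosen and 8.53 in other naïve cells.

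**Figure D1:**
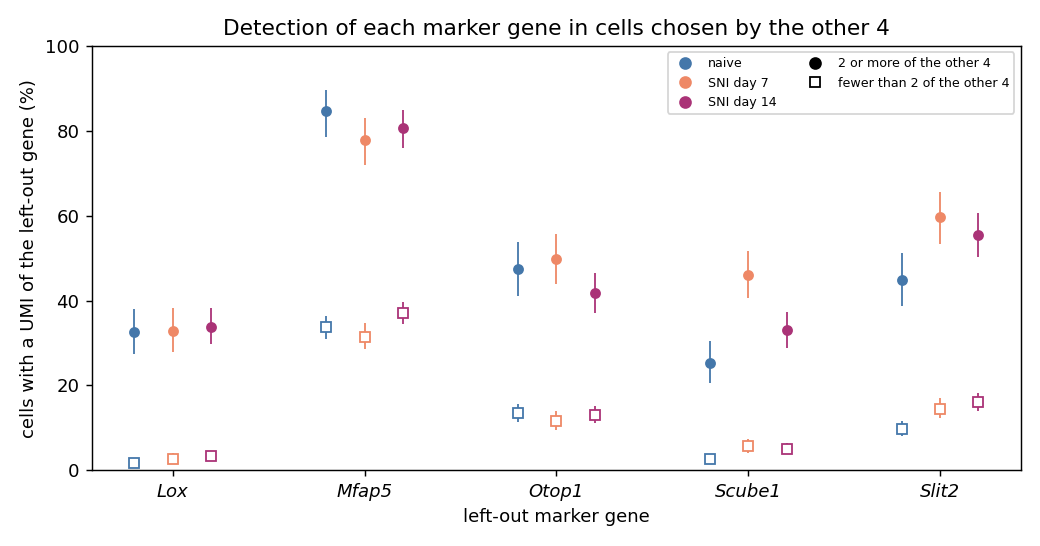
Share of myelinating cells (%, vertical axis) with a UMI of each left-out gene (horizontal axis), for cells chosen by the other 4 genes (filled circles) and cells not chosen (open squares), by library (colour), with 95% Clopper-Pearson intervals. Filled circles lie above the open squares of the same gene and library, with Lox at 32.5% against 1.81% in the naïve library and Mfap5 at 84.7% against 33.6%.

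Spp1, the named gene that the rule did not use, was far higher in members. It was at 1917 CPM (1847 to 1989) in naïve members, 2063 CPM (2002 to 2126) at 7 days and 1600 CPM (1556 to 1646) at 14 days. In the other myelinating cells it was at 203 CPM, 260 CPM and 233 CPM. The log2 ratio with 10 CPM added to both sides was 3.18 for naïve cells, 2.94 for 7-day cells and 2.73 for 14-day cells. Across all 6358 genes that passed the detection filter the median log2 ratio was -0.08, -0.07 and -0.06.

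Spp1 was not the same in every member. A naïve member had a median of 4 UMIs of Spp1, and the highest had 116. At 7 days the median was 5 and the highest 289, and at 14 days they were 4 and 104. The tenth of members with the most Spp1 UMIs held 47.2%, 48.9% and 46.3% of them. A UMI was present in 79.6%, 81.6% and 78.4% of members and in 18.3%, 21.4% and 23.3% of the other cells.

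Spp1 climbed with the number of the 5 genes detected. In the naïve library it was at 86.8 CPM in cells with none, 398 CPM with 1, 997 CPM with 2, 1955 CPM with 3 and 3091 CPM with 4 or 5. At 7 days it went from 122 CPM with none to 3385 CPM with 4 or 5, and at 14 days from 85.2 to 2593 CPM. Each step was upward in each library. Depth moved with these steps, from a median of 2094.5 UMIs in naïve cells with none to 6291 UMIs in those with 4 or 5, and its part in the steps was not tested.

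Apod, which encodes apolipoprotein D, a secreted carrier of lipids, followed the same order. It was at 75.2 CPM in naïve cells with none of the 5 genes and at 2299 CPM in those with 4 or 5. At 14 days these were 106 and 3433 CPM. Chst2, a sulfotransferase of the Golgi, went from 4.05 to 274 CPM in the naïve library. Pou3f1, a transcription factor of Schwann cells before and at the start of myelination, went the other way, from 949 to 272 CPM.

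**Figure D2:**
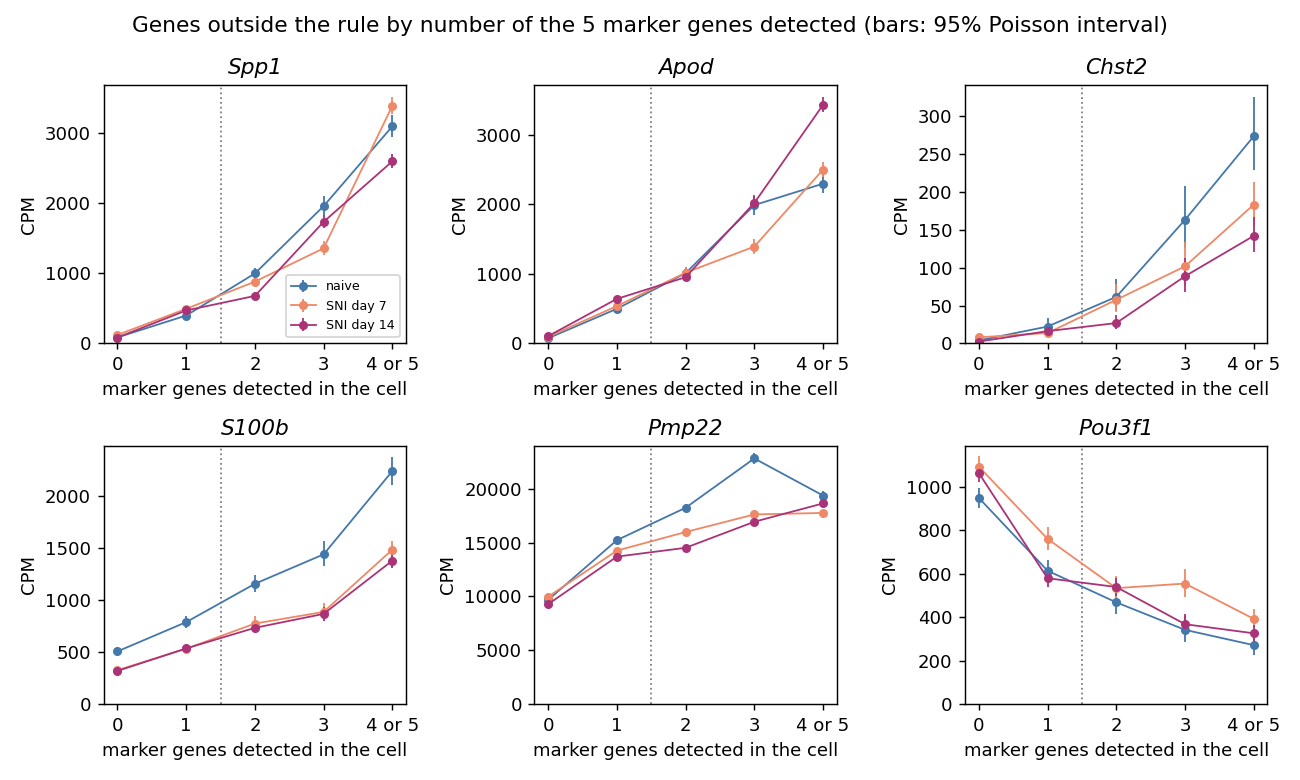
Level (CPM, vertical axes) of 6 genes that the rule did not use against the number of the 5 genes detected in a cell (horizontal axes), by library (colour), with 95% Poisson intervals, and the dotted line marking the limit of the rule. Spp1, Apod, Chst2 and S100b climb from left to right, Pou3f1 descends from 949 to 272 CPM in the naïve library, and Pmp22 lies between 9281 and 22796 CPM.

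Clustering gave a second view of the members. Myelinating cells of all libraries were clustered without the genes of the rule, Spp1 and mitochondrial genes, which gave 6 clusters. A cluster of 950 cells held 749 of the 1213 members (61.7%) and 201 of the 2921 other cells (6.88%). It was picked as the cluster that held the most members. Its leading genes were Lox, Apod, Spp1, Chst2, Fgl2, Fam107a, Plk5, Scube1, Nbl1 and P3h2. Since 78.8% of its cells were members, this list follows largely from the pick. Of the cells with none of the 5 genes 1.75% were in this cluster, then 16.2% with 1, 42.9% with 2, 68.7% with 3, 88.6% with 4 and 93.4% with 5. Its cells had a median of 4902 UMIs, against 2553 UMIs in the largest cluster. Cells with more of the 5 genes were also deeper, and the part of depth in these shares was not tested.

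The members outside that cluster were spread over the others. The largest cluster, led by Npr3, held 257 members among 1931 cells, and a cluster led by Jag1 held 138 among 939. A small cluster led by Ednrb, Ccnd1 and Egr3 held 16 members among 158 cells and was the deepest, at a median of 7435 UMIs. A cluster led by Ifit1, Gbp2, Acta2 and Isg15, genes of interferon response and of vessel wall cells, held 46 members among 121 cells. The main cluster held 63.5% of naïve, 60.8% of 7-day and 61.3% of 14-day members. These shares depended on the clustering, and at resolution 1 in place of 0.5 they were 26.1%, 36.0% and 39.7%, with the naïve and 14-day intervals apart.

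Over all genes outside the rule, the members were set against the other myelinating cells of the same library. A gene was counted when its log2 ratio was at least 1 in size in the same direction in all 3 libraries and when 10% or more of the cells on its higher side held a UMI of it. Of 6358 genes tested, 42 were higher in members (0.661%) and 22 were lower (0.346%). The members were picked from these counts, so the lists describe the group and test nothing. With the other cells weighted to the depth of members the counts were 75 higher and 127 lower, which turns the balance, and with 50 CPM added in place of 10 they were 11 and 6. At the limit, Tppp3 (smallest log2 ratio 1.02) and Tm6sf1 (1.02) were inside, and Enpp2 and Sbspon (both 0.99) were outside.

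Secreted and matrix proteins were among the genes highest in members, besides Spp1. Apod was at 1681, 1742 and 2078 CPM in naïve, 7-day and 14-day members and at 233, 261 and 312 CPM in the other cells. Fgl2, which encodes a fibrinogen-like protein, was at 289, 311 and 233 CPM against 21.04, 42.9 and 33.2 CPM. Nbl1, a secreted antagonist of BMP ligands, was at 167, 155 and 148 CPM against 25.03, 25.7 and 32.1 CPM. All 3 were above the other cells in every library, as their selection required.

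C1ql3, a secreted C1q-like protein, was at 50.7, 68.7 and 48.1 CPM against 6.17, 15.05 and 8.62 CPM. Pla2g7, a secreted phospholipase that breaks down platelet-activating factor, was at 69.6, 52.5 and 55.6 CPM against 9.80, 8.81 and 9.14 CPM. Col23a1, a collagen anchored in the membrane, was at 316, 289 and 243 CPM against 64.9, 54.7 and 65.0 CPM. P3h2, an enzyme that hydroxylates prolines of collagen, was at 93.9, 52.5 and 49.4 CPM against 9.07, 2.94 and 6.79 CPM. These 4 genes were above the other cells in each library, again as selected.

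Growth factors and a binding protein were further down the list of higher genes. Igfbp5, which binds insulin-like growth factors, had log2 ratios of 1.48, 1.74 and 1.42. Those of Hbegf and Tgfa, 2 ligands of the EGF receptor, were 1.09, 1.17 and 1.30 and 1.24, 1.22 and 1.08. Bmp7, a BMP ligand, was at 46.6, 34.8 and 37.3 CPM in members against 10.2, 8.81 and 12.3 CPM. The ligand Bmp7 and the antagonist Nbl1 were thus both higher in the same group of cells.

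Of genes that act inside the cell, Chst2 was at 156, 122 and 82.1 CPM against 10.9, 10.3 and 7.83 CPM. Fam107a, a protein of the actin cytoskeleton, was at 132, 114 and 92.6 CPM against 13.4, 11.4 and 12.3 CPM. Plk5, of the polo-like kinase family, was at 68.3, 44.8 and 47.5 CPM against 10.5, 5.14 and 5.74 CPM. S100b, the calcium-binding protein used as a Schwann cell marker, was at 1579, 1107 and 995 CPM against 613, 405 and 404 CPM. Prkca, protein kinase C alpha, had log2 ratios of 1.40, 1.38 and 1.44.

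H2-DMb1 and H2-DMa, which load peptides on class II molecules of the major histocompatibility complex, were both higher in members. H2-DMb1 was at 137, 92.0 and 77.6 CPM against 18.5, 19.1 and 13.1 CPM, and H2-DMa at 129, 104 and 79.2 CPM against 24.7, 21.7 and 19.8 CPM. The mouse has a close paralogue of H2-DMb1, so that its counts are uncertain. The class II genes themselves did not go with them. Cd74, the invariant chain, was at 4.05, 8.58 and 23.2 CPM in members against 5.80, 77.1 and 57.2 CPM, and H2-Aa at 1.35, 5.25 and 17.7 CPM against 5.08, 45.1 and 56.9 CPM.

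The genes lower in members included Ednrb, Ncam1 and Ntrk2, known from satellite glia or non-myelinating Schwann cells. With at least 5 of the 7 myelin genes required, Ednrb, Ncam1, Ntrk2 and Pou3f1 were no longer counted as lower. An Ncam1 UMI was present in 16.4% of members and 16.8% of the other cells. Ednrb, the endothelin receptor B, was at 39.9, 54.8 and 92.9 CPM in members and at 392, 295 and 343 CPM in the other cells. Sox4, a transcription factor of progenitor cells, was at 33.1, 46.3 and 56.9 CPM against 199, 192 and 198 CPM. Both were below the other cells in each library, as their selection required.

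Npr3, the clearance receptor of natriuretic peptides, was at 3.38, 7.63 and 5.24 CPM in members against 39.9, 70.8 and 71.3 CPM. Abca8a, a membrane transporter of the ABC family, was at 55.4, 75.8 and 105 CPM against 365, 306 and 351 CPM. Col27a1, a fibrillar collagen, was at 8.79, 19.6 and 28.1 CPM against 97.2, 105 and 103 CPM. Zfp36l1, which promotes the decay of mRNAs, had log2 ratios of -2.15, -1.53 and -1.50. Npr3 was also the leading gene of the largest cluster.

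The adhesion molecules Cadm1 and Mcam had log2 ratios of -1.97, -1.65 and -1.48 and of -1.49, -1.52 and -1.37. Btg1, an antiproliferative factor, had ratios of -1.66, -1.61 and -1.37. Egr1, an immediate early transcription factor, was at 20.95, 28.6 and 42.2 CPM against 79.1, 139 and 141 CPM. These 4 genes lay below the other cells in each library, again as selected.

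**Figure D3:**
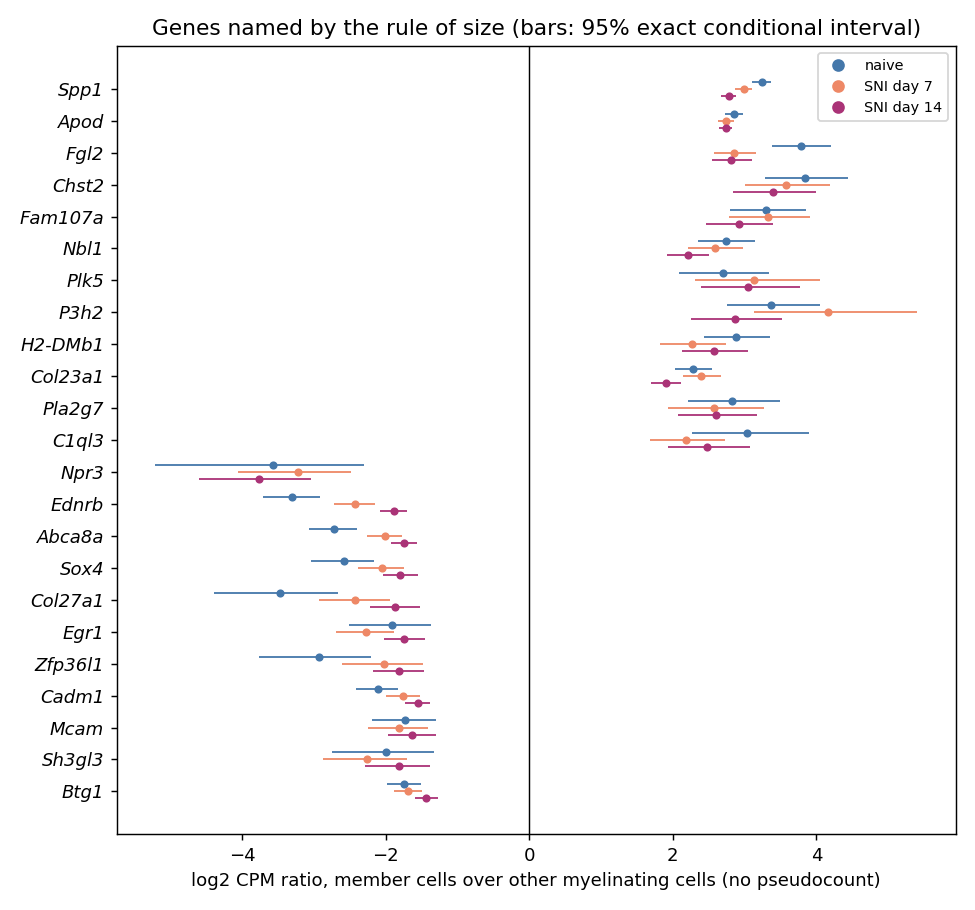
Log2 CPM ratio of members over other myelinating cells (horizontal axis, no pseudocount) for the 12 highest and 11 of the 12 lowest genes (vertical axis), by library (colour), with 95% exact conditional intervals. The intervals of the 12 upper genes lie right of 0 and those of the 11 lower genes left of it in all 3 libraries, and the genes were selected for this.

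The Ednrb and Sox4 UMIs of the other cells were unevenly held. A Sox4 UMI was present in 25.1% of the other cells and 13.8% of members, and an Ednrb UMI in 18.2% and 8.00%. When cells with a UMI of either gene were left out of both sides, 979 members and 1926 other cells remained, and 30 genes were higher and 11 lower. Of the 42 and 22 genes counted before, 27 and 11 remained. Pou3f1, Jun, Egr1, Ncam1 and Ntrk2 were among those not kept, whereas Spp1, Apod, Chst2, Npr3 and Abca8a were kept.

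Other peripheral myelin genes mostly stayed within the 2-fold limit, although many leaned upward. Of 18 listed genes 17 were tested, 0 were higher and 1 was lower by the same limits. In all 3 libraries 13 of the 17 had a ratio above 0 and 4 below 0, where 20.5% and 40.7% of all genes tested did. Pmp22, a membrane protein of compact myelin, had log2 ratios of 0.75, 0.57 and 0.59, and Gjb1, the gap junction protein connexin 32, had 0.88, 0.88 and 0.71. Cnp, an enzyme of noncompact myelin, had ratios of -0.89, -0.89 and -0.78. Sh3gl3, an endophilin, was the gene counted as lower, at 13.5, 14.3 and 17.0 CPM against 54.1, 68.6 and 60.1 CPM.

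The partners of Lox and Mfap5 in elastic fibres were mostly near the background. Of 19 listed genes 3 passed the detection filter, and 0 were higher or lower. Eln, elastin itself, was at 0.68, 0.48 and 4.58 CPM in members. Fbln5, a fibulin that binds elastin and lysyl oxidases, was at 199, 141 and 148 CPM against 143, 76.7 and 102 CPM. Fbn1, the main fibrillin of microfibrils, had log2 ratios of 0.66, -0.29 and -0.14 and so changed sign between libraries. The Lox relatives Loxl1, Loxl2 and Loxl4 were at or below 2.38 CPM in members of each library.

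Basal lamina genes lay on both sides. All 17 listed genes were tested, 0 were higher or lower by the limits, and 9 had a ratio above 0 and 6 below 0 in all 3 libraries, where 20.5% and 40.7% of all genes tested did. Col4a1 and Col4a2, the chains of collagen IV, had ratios of 0.46, 0.35 and 0.44 and of 0.62, 0.75 and 0.65. Agrn, which encodes agrin, had 0.93, 0.84 and 0.70. Lama2, the laminin chain lost in a muscular dystrophy with neuropathy, had -0.76, -1.09 and -0.53, and Lama4 had -0.72, -0.71 and -0.44. Collagen IV and agrin thus leaned to members and the laminin alpha chains Lama2 and Lama4 to the other cells.

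Of 16 genes for Slit, Robo and other guidance molecules 4 were tested and 0 were higher or lower. Sema3g, a secreted semaphorin, had ratios of 0.94, 1.25 and 1.18 and missed the limit in the naïve library alone. Sema3b had 0.69, 0.61 and 0.58. The Slit2 receptors Robo1 and Robo2 were at or below 2.03 CPM in members of each library, and Slit3 was at 14.9, 20.03 and 19.6 CPM.

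Of 8 osteopontin receptor genes 2 were tested, Itgav and Itgb5, with log2 ratios of 0.30, 0.28 and 0.14 and of 0.38, 0.10 and 0.32. Cd44 was at 7.43, 12.9 and 14.1 CPM in members against 29.0, 24.2 and 29.5 CPM. Itgb3, the partner of Itgav in an osteopontin-binding integrin, did not pass the detection filter and was at 2.03, 1.43 and 6.55 CPM in members against 47.2, 23.5 and 31.3 CPM. Itgav and Itgb5 thus leaned to the members, and Itgb3 and Cd44 to the other cells.

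Of 14 transcription factors of the Schwann lineage 12 were tested, 0 were higher and 1, Pou3f1, was lower. Pou3f1 was at 372, 479 and 424 CPM against 824, 969 and 877 CPM, with a ratio at 7 days of -1.002, at the limit. Sox10, which sets Schwann cell identity, had ratios of -0.38, -0.34 and -0.35. Egr2, which drives myelination, was at 178, 257 and 297 CPM against 238, 299 and 265 CPM, so its ratio changed sign at 14 days. Sox2 had ratios of -1.43, -0.97 and -0.81.

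Of 15 genes of injured or repair Schwann cells 2 were tested, and both were lower in members, where 0.346% of all genes tested were. Jun, the factor that drives the repair state, was at 80.4, 108 and 117 CPM against 184, 240 and 248 CPM. Jun lay near the limit and was no longer counted in several settings, among them without cells called by Scrublet, without a cell filter and with at least 5 of the 7 myelin genes. Mcam, the other, was not counted without cells with a Col1a1 or Col3a1 UMI. Olig1 and Artn were at 0 UMIs in members of all 3 libraries, and 3 counts in the smallest of these sums allow 2.03 CPM. Of 8 immediate early genes 5 were tested and Egr1 alone was lower, and Fos had ratios of -1.20, -1.24 and -0.85. Of 16 cholesterol synthesis genes 14 were tested and 0 were higher or lower, with list medians of -0.02, -0.18 and -0.26.

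Markers of other cells were read in the same way. Of the 7 fibroblast markers 3 were higher in members in the naïve and 7-day libraries and 4 at 14 days, and their sum was 3499 to 3762 CPM in members against 1489 to 1687 CPM. Apod, itself on that list, made up most of the difference. Col1a1 was at 309, 241 and 201 CPM in members against 105, 110 and 106 CPM, while Pdgfra was at or below 0.68 CPM and Dcn, limited by the rule, at or below 14.1 CPM. The part of fibroblast RNA in the result was not tested. The ratios were also taken without every cell that had a Col1a1 or Col3a1 UMI. This cannot measure that part, since it sets no limit on Apod or other fibroblast transcripts.

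In the 469 members and 1815 other cells left, 23 genes were higher and 15 lower, of which 21 and 14 were among those counted before. The log2 ratio of Spp1 was 2.42 at 7 days and 2.53 at 14 days there. Plk5, Bmp7, Hbegf, Tgfa and Igfbp6 were among the higher genes not kept. Spp1, Apod, Fgl2, Chst2, Fam107a, Nbl1, P3h2 and S100b were kept.

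The 5 satellite glia markers summed to 276 to 426 CPM in members against 670 to 882 CPM in the other cells, with 4 of 5 lower in the naïve and 7-day libraries and 5 of 5 at 14 days. The 5 markers of non-myelinating Schwann cells summed to 55.8 to 73.0 CPM against 151 to 197 CPM. Macrophage markers summed to 2.70, 66.8 and 45.8 CPM in members against 6.89, 110 and 59.8 CPM. The endothelial genes Pecam1 and Cdh5 were at 0 by the rule, and the 5 endothelial markers summed to 3.38, 5.72 and 11.5 CPM against 7.26, 8.08 and 14.1 CPM. Pericyte and smooth muscle markers summed to 24.3, 43.9 and 48.4 CPM against 56.6, 11.01 and 109 CPM. Those of perineurial cells (313, 331 and 347 CPM against 324, 324 and 299 CPM) lay near each other in both groups, and those of neurons (46.0, 82.5 and 84.4 CPM against 69.3, 150.1 and 109 CPM) were lower in members. The sums for other glia were thus lower in members, though Cdh19 was at 180, 180 and 212 CPM against 179, 166 and 220 CPM. Col1a1, Apod and Col1a2 (1423, 1452 and 1370 CPM against 1043, 1109 and 1070 CPM) were higher in members. In cells picked as non-myelinating Schwann-like, Col1a1 was at 505, 400 and 1399 CPM and Fgl2 at 175, 223 and 258 CPM. In cells picked as macrophage-like, Fgl2 was at 343, 189 and 193 CPM, above members in the naïve library and below them in both injured libraries. The part of these other cell kinds in the ratios was not tested.

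The 5 genes were also followed through cells of other kinds, picked by markers. In endothelial-like cells, taken as a background, 0 of 274 naïve, 0 of 189 7-day and 0 of 289 14-day cells had 2 or more of them. Their median depth was 4246.5, 4967 and 5612 UMIs, against 4000, 5340 and 5103 UMIs in members. This background is not clean for Scube1, which had a UMI in 2.19%, 4.23% and 5.88% of these cells, and each of the other 4 genes had one in at most 3.46%. A count of 0 in 274 cells allows up to 1.34% (Clopper-Pearson). In satellite glia-like cells the share was 0%, 0.286% and 0.455%. Neuron-like cells, at medians of 76496 to 97151 UMIs, had shares of 5.45%, 5.45% and 8.62%, and Mfap5 was at or below 2.32 CPM in them.

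Fibroblast-like cells had Lox, Mfap5, Scube1 and Slit2, but not Otop1, at higher levels than the endothelial-, satellite glia- and neuron-like cells. There 6 of 67 naïve cells (8.96%), 7 of 48 at 7 days (14.6%) and 14 of 119 at 14 days (11.8%) had 2 or more of the 5 genes. Mfap5 was at 354, 289 and 473 CPM in them, Spp1 at 478, 598 and 538 CPM and Lox at 84.3, 68.2 and 27.1 CPM. Apod reached 55113, 54653 and 54444 CPM. Otop1 had 0 UMIs in the fibroblast-like cells of all 3 libraries, whereas members had 417, 589 and 647 UMIs of it. An Otop1 UMI was present in 60.2%, 57.3% and 51.8% of members, a share that the rule partly sets.

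**Figure D4:**
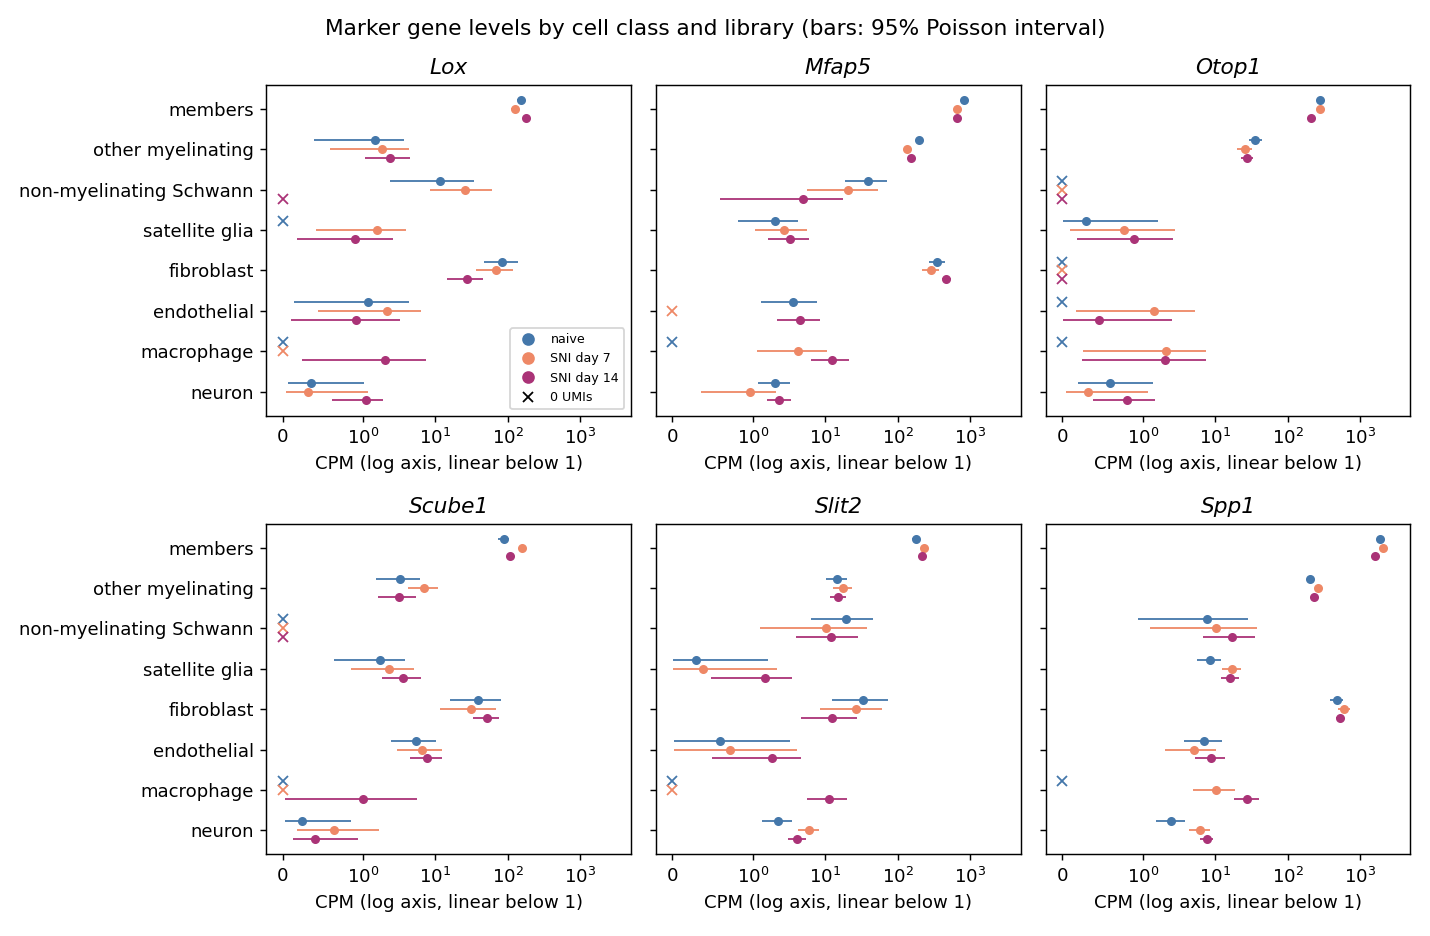
Level (CPM, horizontal log axis, linear below 1) of the 5 genes of the rule and of Spp1 in members, other myelinating cells and cells picked by markers of 6 other kinds (vertical axis), by library (colour), with 95% Poisson intervals and crosses for 0 UMIs. Members are at the top of each panel, fibroblast-like cells come near them for Mfap5 (289 to 473 CPM), and Otop1 is at 0 UMIs in fibroblast-like cells.

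The share of members among myelinating cells differed between libraries as deposited. Members made up 24.1% of naïve myelinating cells (329 of 1363, 21.9 to 26.5%), 30.6% of those at 7 days (347 of 1135, 27.9 to 33.3%) and 32.8% of those at 14 days (537 of 1636, 30.6 to 35.2%). The naïve interval was apart from both others, but not from that at 7 days (32.7% against 30.4%) when cells needed 1000 genes and 10% mitochondrial UMIs or less. Myelinating cells of the naïve library were shallower, with a median of 2266.5 UMIs in the other myelinating cells against 3197.5 at 7 days and 3123 at 14 days.

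When each cell was thinned to 2000 UMIs, the shares were 20.9% (18.3 to 23.7%), 19.97% (17.5 to 22.5%) and 20.2% (18.2 to 22.4%). Shallower cells were left out, 435 naïve, 122 at 7 days and 177 at 14 days. The same cells before thinning had shares of 32.4%, 33.4% and 35.2%. At 4000 UMIs the order turned, with 59.2% of 255 naïve cells, 49.9% of 467 at 7 days and 46.7% of 694 at 14 days. The same cells before thinning had 64.7%, 56.5% and 54.0%, so this order was already present once 1108 naïve, 668 7-day and 942 14-day cells were left out. The 3 intervals overlapped at 2000 UMIs, so no difference between libraries was detectable at that depth, and the order as deposited did not hold at 4000 UMIs.

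**Figure D5:**
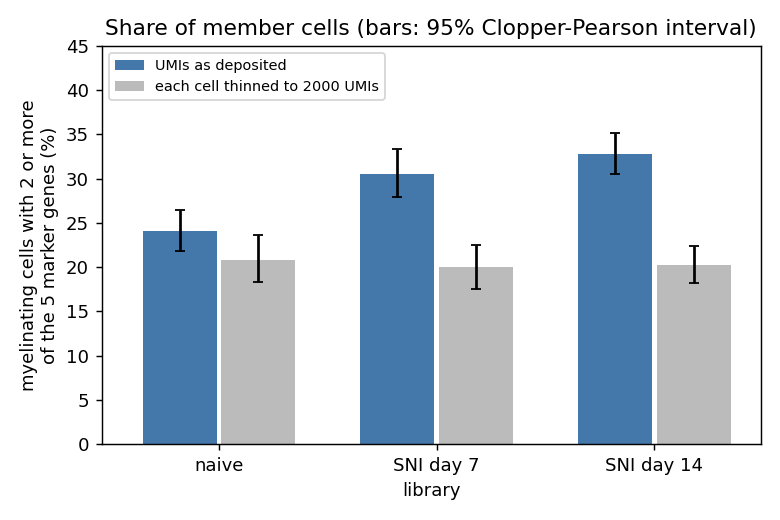
Share of myelinating cells with at least 2 of the 5 genes (%, vertical axis) by library (horizontal axis), with UMIs as deposited (blue) and with each cell thinned to 2000 UMIs (grey), with 95% Clopper-Pearson intervals. The blue bars stand at 24.1%, 30.6% and 32.8%, and the grey bars at 20.9%, 19.97% and 20.2%.

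Within members, the injured libraries were set against the naïve library by the same limits of size. In both injured libraries 1 of 6604 genes was higher (0.0151%) and 3 were lower (0.0454%). These counts moved with the settings, to 12 and 6 with 1 CPM added in place of 10, to 2 and 12 with at least 3 of the 5 genes, and to 3 and 15 without the detection filter. In the other myelinating cells 1 of 5113 was higher (0.0196%) and 1 lower (0.0196%). The genes of the rule were left out of this count, and Spp1 was not among the genes counted. No replicate stands behind any of these values, and a change of condition and a change of library cannot be told apart.

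Spp1 in members had a log2 ratio over the naïve library of 0.11 at 7 days (without the added 10 CPM, interval 0.04 to 0.17) and of -0.26 at 14 days (-0.33 to -0.19). In the other myelinating cells the ratios were 0.34 and 0.19. Apod had 0.05 and 0.30 in members. Chst2 had -0.33 at 7 days and -0.85 at 14 days. At 7 days 1 member held 289 of the 4327 Spp1 UMIs, which the interval does not take into account. With at least 3 of the 5 genes the 7-day ratio in members was 0.04 (-0.04 to 0.12). Spp1 in members was thus below the naïve level at 14 days, whereas its side at 7 days was not settled. Both differences were small beside that between members and other cells.

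Of the 5 genes, Scube1 had the ratio largest in size at 7 days, 0.80 at 7 days and 0.29 at 14 days. Slit2 had 0.36 and 0.27, and Mfap5 -0.31 and -0.30. Otop1 had -0.0047 and -0.40 and Lox -0.25 and 0.22. The rule used these genes, and the libraries differ in depth, whose part in these values was not tested.

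The gene counted as higher was Nr1d1, a repressor of the circadian clock. It was at 23.0 CPM in naïve members, 78.2 CPM at 7 days and 85.7 CPM at 14 days. In the other myelinating cells it was at 28.7, 83.0 and 116 CPM, so the same order was seen outside the members. Hspa1a, an inducible heat shock protein, was lower, at 195, 69.6 and 56.6 CPM in members and 220, 75.6 and 85.6 CPM in the other cells. Its near-identical copy Hspa1b makes its counts uncertain.

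Isg15 and Bst2, both induced by interferon, were the other genes counted as lower. Isg15 was at 203, 38.6 and 16.04 CPM in members and at 95.05, 24.96 and 16.7 CPM in the other cells. The tenth of naïve members with the most Isg15 UMIs held 90.3% of them, and a UMI was present in 58 of 329. Bst2 was at 83.8, 27.7 and 29.5 CPM in members. Of the 121 cells in the cluster led by Ifit1 and Isg15 77 were naïve, and without that cluster Isg15 and Hspa1a were still counted as lower and Bst2 was not.

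Of the genes of injured or repair Schwann cells, Gap43 was at 0.68, 8.58 and 13.1 CPM, Atf3 at 0, 1.43 and 2.29 CPM and Ngfr at 0.68, 1.91 and 1.96 CPM. Jun had log2 ratios over naïve of 0.38 and 0.50 in members. Gap43 rested on 1, 18 and 40 UMIs, the injured libraries being above the naïve one, and in the other myelinating cells it was at 5.44, 16.9 and 16.97 CPM. Jun did not reach the 2-fold limit, and Gap43 did not pass the detection filter.

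Doublets and shared barcodes touched few members. Scrublet called 90 of 9662 cells (0.931%), 7 of them members, and the called cells were kept. No barcode was a member in 2 libraries, and 1 to 6 barcodes were shared between pairs of libraries. Libraries held 22343246 to 36550911 UMIs in 3281 to 4908 barcodes, and 2682 to 3828 cells per library passed the filter.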

How the data were processed

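Single cell mRNA was measured in 3 libraries (10x Chromium 3′ v3). The authors deposited UMI counts by gene for each called cell, not normalized, from Cell Ranger 3.0.2 on mm10 per the submitters' processing notes. Further processing was not given in the sources used here. Cells needed 500 genes or more and 20% mitochondrial UMIs or less. Myelinating cells also had Fabp7 under 0.2% of UMIs, at most 1 UMI each of Scn7a, of Snap25 with Rbfox3 and of Dcn with Lum, and 0 of Pecam1 and Cdh5. Members and gene lists were chosen with earlier results of these data known. UMIs were summed over the cells of a library, giving CPM, and ratios are log2 with 10 CPM added. Genes named were the 12 highest and 12 lowest past 2-fold in all 3 libraries (8 and 8 for injury), and members of fixed lists. Some of these are not reported here. Thinning drew UMIs without replacement in 50 draws. Clustering used scanpy 1.11.5 and leidenalg 0.10.2 (counts scaled to 10000, 2000 variable genes, 30 components, 15 neighbours, resolution 0.5), and Scrublet an expected rate of 5%. Of 31053 gene identifiers 30934 were found in GENCODE M21. Alternatives covered the cell filter, the class limits, doublets, depth, pseudocount, scaling and clustering.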

Additional observations from a re-analysis of the deposited data

Results flagged for a closer look

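For 4 of the named genes the injured libraries lay on opposite sides of the naïve level in members and in the other myelinating cells at both times. This is by sign alone, and the share of all genes with such signs was not taken. The differences were not tested, with 1 library per time. Without the added 10 CPM, all intervals of Nbl1 spanned no change. So did those of Sox4 in the other cells at both times and of Abca8a there at 14 days. In members those of Ednrb and Sox4 at 7 days spanned no change as well. Ednrb had log2 ratios over naïve of 0.38 at 7 days and 1.05 at 14 days in members, and of -0.40 and -0.19 in the other myelinating cells. Abca8a had 0.39 and 0.81 in members and -0.25 and -0.053 in the other cells. Sox4 had 0.38 and 0.63 in members and -0.045 and -0.0080 in the other cells. These 3 genes are lower in members, and their distance to the other cells was smaller in both injured libraries than in the naïve library. Nbl1, which is higher in members, had -0.11 and -0.16 in members and 0.027 and 0.27 in the other cells.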

How the results depend on the processing

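No paired analysis was possible because there is a single library for every condition, and for the same reason no replicate could be left out. No ratio of Spp1 in members over other cells reversed, with ranges of 2.77 to 4.32 in the naïve library, 2.42 to 3.98 at 7 days and 2.53 to 4.08 at 14 days. The causes of the shifts below were not tested.

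With 1000 genes or more and 10% mitochondrial UMIs or less, members were 32.7% of naïve (29.1 to 36.5%), 30.4% of 7-day (26.6 to 34.4%) and 40.7% of 14-day myelinating cells, so the naïve share was no longer below the 7-day one. The Spp1 ratio was 2.77 for naïve and 2.56 for 14-day cells. Injury then gave 2 higher genes, and Spp1 in members at 14 days was at -0.18 over naïve. Without a cell filter the Spp1 ratio at 14 days was 2.55. With at least 5 of the 7 myelin genes, the shares in these 2 libraries were 27.0% and 35.2% and the Spp1 ratios 3.04 and 2.64. With at least 3 of the 5 genes, the shares were 11.7%, 17.4% and 16.3%, the Spp1 ratios 2.85 in the naïve library and 2.75 at 7 days, and injury gave 2 higher and 12 lower genes. With no Dcn or Lum UMI allowed, injury gave 2 higher genes.

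Thinning to 2000 UMIs gave shares of 20.9%, 19.97% and 20.2%, and to 4000 UMIs 59.2%, 49.9% and 46.7%. With the other cells weighted to the depth of members, the Spp1 ratio was 3.38 at 7 days and 2.65 at 14 days, and 75 genes were higher and 127 lower, of which 38 and 21 were among the 42 and 22. Against cells with none of the 5 genes the Spp1 ratios were 4.32, 3.98 and 4.08, and 92 genes were higher and 43 lower, with 41 and 22 of them shared.

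A pseudocount of 1 CPM gave 69 higher genes, and 12 higher and 6 lower with injury. A pseudocount of 50 CPM gave Spp1 ratios of 2.96, 2.77 and 2.54, 11 higher and 6 lower genes, and 0 higher with injury. Nr1d1 was counted as higher in every other setting run. Without a detection filter 37 genes were lower, and injury gave 3 higher and 15 lower. With a filter of 20% of cells 11 genes were lower, and injury gave 1 lower. Alternatives chosen after seeing the data were also run. Without cells with an Ednrb or Sox4 UMI 11 genes were lower. Without cells with a Col1a1 or Col3a1 UMI the Spp1 ratio was 2.42 at 7 days and 2.53 at 14 days, and 23 genes were higher. Without the Ifit1-led cluster injury gave 3 higher genes (C4b, Nr1d1 and Nr1d2).

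The main cluster held 49.6% of members at resolution 0.3 and 35.0% at resolution 1. In each library clustered on its own it held 80.2%, 58.8% and 52.7%, and in the naïve library it then also took 25.7% of the other cells. In cells with at least 3000 UMIs the left-out gene was present in 38.8% (Lox), 54.2% (Otop1) and 32.9% (Scube1) of the chosen naïve cells.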

Other observations

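Several genes past the limits have not been described above. Vit, which encodes vitrin, an extracellular matrix protein, was at 95.3, 82.5 and 91.3 CPM in members of the naïve, 7-day and 14-day libraries, against 24.7, 21.7 and 24.5 CPM in the other myelinating cells. Serpind1, the secreted protease inhibitor heparin cofactor II, was at 96.6, 58.2 and 53.0 CPM against 21.4, 13.2 and 13.6 CPM. Igfbp6, which binds insulin-like growth factors, was at 77.0, 49.6 and 54.3 CPM against 18.9, 15.05 and 18.5 CPM. Nes, which encodes the intermediate filament nestin, was at 247, 241 and 240 CPM against 116, 94.7 and 110 CPM. These genes were chosen after their values were seen, and no test stands behind them. Igfbp6 and Nes, and Jag1 and Kcna6 named below, were no longer counted when cells with an Ednrb or Sox4 UMI, or with a Col1a1 or Col3a1 UMI, were left out.

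The genes below were likewise chosen after their values were seen. Among the lower genes, Jag1, a ligand of Notch, was at 17.6, 14.3 and 17.0 CPM in members against 64.2, 50.3 and 49.6 CPM. Kcna6, a voltage-gated potassium channel, was at 17.6, 23.8 and 44.5 CPM against 90.3, 89.9 and 106 CPM. Fbln2, a fibulin on the fixed lists that did not pass the detection filter, was at 9.46, 13.8 and 28.1 CPM against 106, 54.7 and 82.5 CPM. Jag1, Kcna6 and Fbln2 were below the other cells in each library.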
